A study of Mus musculus with 6 samples.

Results

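The genes described here are 10 endothelial and angiogenic genes (Pecam1, Cdh5, Kdr, Flt1, Tek, Vwf, Emcn, Plvap, Vegfa and Angpt1), taken by their symbols from a table of 53819 genes. All 10 were found and all 10 passed the filter on low counts that left 17496 genes to test. RNA came from healing flexor digitorum longus (FDL) tendons harvested on D28 after surgery, 3 from DTRScxLin and 3 from WT mice, and each library holds 1 tendon. DTRScxLin mice (Scx-Cre+; DTR F/+) carry 1 allele of the diphtheria toxin receptor behind a floxed stop, and Cre driven by Scx, the gene of the tendon transcription factor Scleraxis, opens it. WT mice (Scx-Cre-; DTR F/+) were littermates with the same allele and no Cre, so the controls are not free of the transgene. Both groups had the FDL tendon cut and repaired at 10 to 12 weeks of age and received 5 daily injections of diphtheria toxin (DT) between D14 and D18. The Cre is not inducible, so the toxin receptor is carried by every cell whose lineage has expressed Scx, and animals of both sexes were used. Day 28 is named as post-depletion in the titles of the samples but as post-surgery in the extraction notes and the study, and the latter is used here.

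The inner lining of blood vessels is made of endothelial cells. Vegfa encodes the main growth factor that drives new vessels to sprout, and it acts through the receptor tyrosine kinases encoded by Kdr and Flt1. Angpt1 encodes angiopoietin-1, a ligand made mostly by mural cells and other mesenchymal cells, which activates the endothelial receptor encoded by Tek and favours stable, less leaky vessels. Intact tendon holds few vessels, and vessels grow into the scar tissue of a healing tendon.

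In DTRScxLin tendons the endothelial genes overlapped with WT tendons, and Angpt1 was the gene of the 10 whose groups did not overlap. A count of 1 in 10 is below the 16.8% of all genes tested without overlap, so it is no result about the 10 genes as a group. Angpt1 was 1.47-fold higher in DTRScxLin tendons (95% interval 1.15 to 1.87, n = 3 per group), and each DTRScxLin library was above each WT library. The other 9 genes lay between 0.878-fold (Vegfa) and 1.03-fold (Plvap) of WT, with overlapping groups. In edgeR's quasi-likelihood test with Benjamini-Hochberg adjustment over all genes tested, 0 of the 10 genes passed an adjusted p of 0.05, as did 0% of all genes tested. At an unadjusted p of 0.05, 1 of the 10 (Angpt1) passed, where 11% of all genes did (5.52% higher and 5.45% lower). DESeq2's Wald test called 1 of the 10, again Angpt1, against 2.65% of all genes, and limma-voom called 0.

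Regulatory sequence is given first for the receptors and the sialomucin of the endothelial surface, because these genes share a cell type and their groups overlapped. The 300-base windows run from 250 bases before to 50 bases after the annotated start and come from RefSeq (GRCm38.p6), whose promoter table held 5 of the 10 genes. The genome build behind the counts is not given in the sources used here. Capitals mark GGAA or its reverse complement TTCC, the core letters bound by ETS factors, a family that includes the endothelial regulators Erg and Fli1. The windows lie at chr5:75978406-75978705 on the minus strand (Kdr), chr5:147725962-147726261 on the minus strand (Flt1), chr4:94739039-94739338 on the plus strand (Tek) and chr3:137340828-137341127 on the plus strand (Emcn).
Kdr: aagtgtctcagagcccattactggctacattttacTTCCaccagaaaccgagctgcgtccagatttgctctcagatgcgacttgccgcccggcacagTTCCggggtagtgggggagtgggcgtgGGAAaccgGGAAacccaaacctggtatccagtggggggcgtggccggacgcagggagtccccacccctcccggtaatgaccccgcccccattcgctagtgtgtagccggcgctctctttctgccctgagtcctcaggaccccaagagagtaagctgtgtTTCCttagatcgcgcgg
Flt1: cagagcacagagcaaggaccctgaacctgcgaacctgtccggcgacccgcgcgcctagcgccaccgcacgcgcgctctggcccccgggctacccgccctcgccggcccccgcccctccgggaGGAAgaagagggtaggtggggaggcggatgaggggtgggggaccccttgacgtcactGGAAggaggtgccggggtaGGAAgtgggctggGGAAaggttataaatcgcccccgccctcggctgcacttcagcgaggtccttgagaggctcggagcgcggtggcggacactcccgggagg
Tek: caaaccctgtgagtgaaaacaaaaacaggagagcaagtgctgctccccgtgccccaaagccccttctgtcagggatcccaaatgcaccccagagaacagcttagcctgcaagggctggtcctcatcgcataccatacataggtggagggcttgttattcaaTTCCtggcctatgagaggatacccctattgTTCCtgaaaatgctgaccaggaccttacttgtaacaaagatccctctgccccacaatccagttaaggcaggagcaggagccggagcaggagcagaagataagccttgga
Emcn: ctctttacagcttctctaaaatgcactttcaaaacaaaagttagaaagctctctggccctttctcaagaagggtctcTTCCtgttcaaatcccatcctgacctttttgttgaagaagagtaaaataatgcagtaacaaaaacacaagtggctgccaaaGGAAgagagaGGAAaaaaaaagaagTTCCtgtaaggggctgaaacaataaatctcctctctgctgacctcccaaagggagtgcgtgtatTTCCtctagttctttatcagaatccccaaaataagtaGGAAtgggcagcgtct
On both strands together, the letters occurred 5 times in the Kdr window, 4 times in Flt1, 2 times in Tek and 6 times in Emcn. They are common, with a match in 96.0% of the 32851 promoter windows and a median of 3 matches. A window with at least as many matches was found in 28.6% of all promoters for Kdr, 46.3% for Flt1, 84.6% for Tek and 15.7% for Emcn. The letters ACGTG, 1 form of the core bound by hypoxia-inducible factors, were searched on both strands too. They were in none of these 4 windows, where 19.6% of all promoters held them. Of the 2 windows listed for Vegfa, which are not printed, 1 held 1 match to ACGTG. The form GCGTG was not counted, and the printed Kdr and Emcn windows hold it, so the search does not show that the core is absent. These matches describe letters in a window and not bound sites.

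Pecam1 and Cdh5 encode the proteins that join endothelial cells to each other, PECAM-1 (CD31) and VE-cadherin. Counts were TMM-normalized and set to the mean library size, and are given for replicates 1 to 3 in that order. Pecam1 was at 8834, 10737 and 11948 in WT libraries and at 8701, 9449 and 10163 in DTRScxLin libraries. Cdh5 was at 4753, 5504 and 5674 in WT libraries and at 5243, 5038 and 5237 in DTRScxLin libraries. For Cdh5 all 3 DTRScxLin libraries sat inside the WT range. For Pecam1 only DTRScxLin replicate 1 was below that range, by a small margin. The Cdh5 mean was 5310.4 ± 490 in WT and 5172 ± 116 in DTRScxLin tendons (SD, n = 3 each). Its log2 fold change of -0.04 had a standard error of 0.09 (edgeR, adjusted p = 0.904). The Pecam1 log2 fold change was -0.15 ± 0.13 (SE) (edgeR, adjusted p = 0.667).

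**Figure D1:**
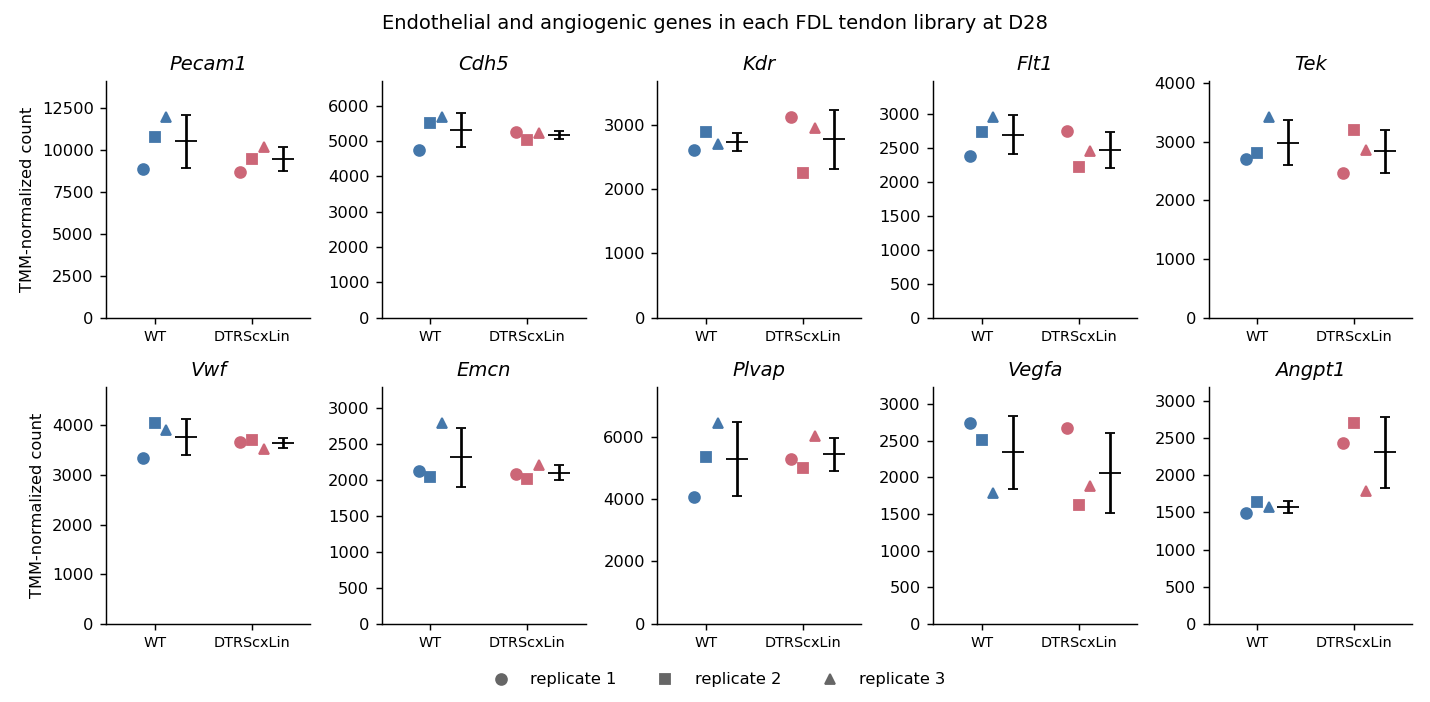
TMM-normalized counts (vertical axes, from 0) of the 10 genes in each library, by genotype. Symbols are libraries (1 tendon each, shape by replicate number), and black bars are the group mean ± SD (n = 3). Angpt1 has all 3 DTRScxLin libraries above all 3 WT libraries, from 1783 against at most 1644, and the groups overlap in the other 9 panels.

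The VEGF receptors were next. Kdr encodes the receptor that carries most of the growth signal, and Flt1 one that binds the ligand more tightly and also acts as a decoy. Kdr had 2606, 2889 and 2706 normalized counts in WT libraries and 3119.6, 2258 and 2952 in DTRScxLin libraries, so that the DTRScxLin libraries lay on both sides of the WT range. Flt1 had 2384, 2734 and 2952 in WT libraries and 2742, 2217 and 2447 in DTRScxLin libraries. DTRScxLin replicate 2 was the lowest library for both receptors. The log2 fold changes were 0.02 for Kdr (standard error 0.13, adjusted p = 0.962, edgeR) and -0.12 for Flt1 (standard error 0.11, adjusted p = 0.701, edgeR). The ratio of Kdr to Flt1 counts within a library was 1.02 ± 0.0931 in WT and 1.12 ± 0.0954 in DTRScxLin tendons (SD, n = 3 each), a difference of about the spread between libraries. The direction for Kdr was not stable, since its log2 fold change was -0.00486 when only library sizes were used for scaling.

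Vegfa, the ligand of both receptors, had the widest interval of the 10 genes. It had 2739, 2507 and 1783 normalized counts in WT libraries and 2671, 1619 and 1878 in DTRScxLin libraries. WT replicate 3 was the low library of its group and DTRScxLin replicate 1 the high library of the other, and the groups overlapped. The SD was 21.3% of the mean in WT and 26.6% in DTRScxLin tendons (n = 3 each). The log2 fold change was -0.19 ± 0.23 (SE) (adjusted p = 0.794, edgeR). It rested on single libraries, at -0.43 without DTRScxLin replicate 1, -0.35 without WT replicate 3, -0.0601 without WT replicate 1 and -0.0404 without DTRScxLin replicate 2. Its 95% interval ran from 0.593-fold to 1.30-fold. These data therefore bound a change in Vegfa less tightly than one in the endothelial genes.

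Angpt1 and its receptor gene Tek are given side by side, and the difference between them was not tested. Angpt1 had 1490.1, 1644 and 1578 normalized counts in WT libraries and 2439, 2701 and 1783 in DTRScxLin libraries. DTRScxLin replicate 3 was the nearest to WT and still above its highest library. The means were 1571 ± 77.3 in WT and 2308 ± 473 in DTRScxLin tendons (SD, n = 3 each). The log2 fold change of 0.56 had a standard error of 0.15, with an adjusted p = 0.340 and an unadjusted p = 0.00659 in edgeR's quasi-likelihood test. DESeq2 gave an adjusted p = 0.0449, just under its threshold. By unadjusted p the gene was number 338 of the 17496 genes tested. One of 10 genes without overlap has to be read against the 16.8% of all genes tested that had none in either direction, and the 8.96% that were higher in every DTRScxLin library (7.85% were lower in each). Without WT replicate 1 the count was 4 of 10, with Pecam1, Cdh5 and Vwf lower beside Angpt1, where 25.7% of all genes had no overlap and 12.4% were lower. Without DTRScxLin replicate 2 it was 2 of 10, Angpt1 and Kdr, where 33.7% had none, and edgeR called 0 of the 10 beside 3.02% of all genes.

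Tek had 2710.1, 2809 and 3419.6 normalized counts in WT libraries and 2464, 3197 and 2861 in DTRScxLin libraries, and the groups overlapped. Its log2 fold change was -0.07 ± 0.13 (SE) (adjusted p = 0.875, edgeR). As a description, the ratio of Angpt1 to Tek counts took the values 0.550, 0.585 and 0.461 among WT libraries and 0.990, 0.845 and 0.623 among DTRScxLin libraries. Angpt2, chosen for comparison after its values were seen, encodes the related ligand that can oppose angiopoietin-1. The ratio of Angpt1 to Angpt2 counts was 1.56 ± 0.0817 in WT and 2.46 ± 0.626 in DTRScxLin tendons (SD, n = 3 each), with a log2 fold change for Angpt2 alone of -0.09 (standard error 0.10). Of the exon bases of Angpt1 in GENCODE vM21, 14.2% are shared with Gm17473 on the opposite strand. Whether the counting used strand is not given in the sources used here, and Gm17473 itself had 5 to 18 counts per library. The other 9 genes shared no exon base with another annotated gene.

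**Figure D2:**
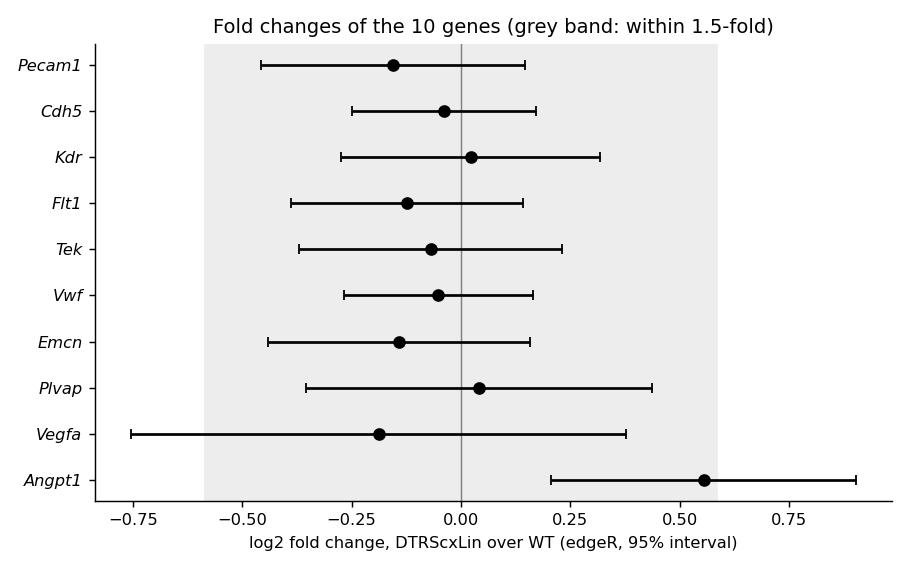
Log2 fold changes of the 10 genes in DTRScxLin over WT tendons (horizontal axis), with 95% intervals from edgeR (not adjusted for the number of genes). The grey band spans a 1.5-fold change in either direction. Angpt1 at 0.56 is the gene whose interval leaves out 0, and 8 of the other 9 intervals lie inside the band.

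Vwf, Emcn and Plvap encode the clotting protein von Willebrand factor, the sialomucin endomucin of capillaries and veins, and a protein of the diaphragms that close endothelial pores. Vwf had 3349.6, 4041 and 3910.2 normalized counts in WT libraries and 3669.9, 3712 and 3521 in DTRScxLin libraries, all 3 of the latter inside the WT range. Emcn had 2117, 2039 and 2785 in WT libraries and 2076, 2004 and 2208 in DTRScxLin libraries. In Emcn, WT replicate 3 stood well above the other 5 libraries. Plvap had 4049, 5359.8 and 6429.7 in WT libraries and 5298, 4981 and 6027 in DTRScxLin libraries, again inside the WT range. The log2 fold changes were -0.05 (Vwf, standard error 0.09), -0.14 (Emcn, standard error 0.13) and 0.04 (Plvap, standard error 0.17). edgeR's adjusted p-values were 0.869, 0.695 and 0.948 in that order.

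The intervals say how large a change these 3 animals per group could have hidden. For 8 of the 10 genes (Pecam1, Cdh5, Kdr, Flt1, Tek, Vwf, Emcn and Plvap) the 95% interval lay within 1.5-fold in either direction, which 51.2% of all genes tested did. That share includes genes with few counts. The highest over the lowest library had a median of 1.38 for the 10 genes. It was 1.29 for the 7601 tested genes with at least 1000 normalized counts. The tightest were Cdh5, from 0.842-fold to 1.13-fold, and Vwf, from 0.830-fold to 1.12-fold. The loosest of the 8 was Plvap, from 0.782-fold to 1.35-fold. The median log2 fold change of the 10 genes was -0.06, beside 0.0082 over all genes tested, and 3 of the 10 were fitted higher, where 51.5% of all genes were. A p-value above the threshold does not show that the groups were alike, and in bulk tissue fewer endothelial cells and less RNA per cell cannot be told apart.

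Per length, the genes ranged widely. Counts were divided by the exon length of each gene in GENCODE vM21, matched by symbol for 10 of 10 genes, and by the total of the library (RPKM). In WT tendons Plvap was highest, at 58.4 ± 13.2 RPKM, followed by Pecam1 at 37.1 ± 5.59 and Cdh5 at 27.8 ± 2.71 (SD, n = 3 each). These 3 junction and pore genes did not overlap each other or the genes below them. Below them Tek (13.9 ± 1.72) overlapped Vegfa (9.07 to 13.9), and Vegfa overlapped Emcn (9.39 ± 1.59), which stood above Kdr. Kdr (6.66 ± 0.438) and Angpt1 (6.64 ± 0.405) overlapped in WT tendons, and Vwf (5.16 ± 0.551) and Flt1 (4.38 ± 0.475) overlapped too. In DTRScxLin tendons Angpt1 was at 9.52 ± 1.66 and Kdr at 6.64 ± 1.13 (SD, n = 3 each). The exon length counts every annotated transcript, so a gene that uses a short form is set too low on this scale.

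Part of the spread was shared between the endothelial genes. WT replicate 1 was the lowest WT library for 7 of the 8 endothelial cell genes, and WT replicate 3 the highest for 6 of the 8. In 7 of the 8 the SD was larger in WT than in DTRScxLin tendons. As a share of the mean it was near equal for Flt1 and Tek, at 10.6% and 12.9% in WT. In DTRScxLin tendons that share was 10.7% and 12.9%. A list of 20 other endothelial genes (among them Cldn5, Esam, Egfl7, Tie1, Robo4 and Erg) showed the same order of WT libraries. This reference level, a mean of log2 CPM values with the WT mean set to 0, was -0.28 for WT replicate 1, 0.06 for replicate 2 and 0.22 for replicate 3. In the same order the DTRScxLin libraries were at -0.20, -0.20 and -0.05. The DTRScxLin libraries were thus between the lowest and the highest WT library. The difference of -0.15 (DTRScxLin minus WT) had p = 0.4 in a two-sided exact permutation test, where 3 against 3 cannot go below 0.1. Without WT replicate 1 the difference was -0.29, and without WT replicate 3 it was -0.04. In the list, 16 of the 20 genes were fitted lower and 4 higher, with a median log2 fold change of -0.15, and 0 passed an adjusted p of 0.05 in edgeR (1 at an unadjusted p of 0.05). Sox7, a transcription factor of the endothelium, was the gene of the list without overlap, at 742 ± 139 normalized counts in WT and 448 ± 25.3 in DTRScxLin tendons (SD, n = 3 each). Its log2 fold change was -0.73 ± 0.16 (SE) (adjusted p = 0.274 from edgeR, 0.00635 from DESeq2).

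Each gene was then set against this reference level library by library, which takes out a shared shift in endothelial transcripts. Angpt1 and Vegfa are not among the 8 endothelial cell genes. For these genes the reference difference of -0.15 by itself raises the value on this scale. Angpt1 was higher by 0.69 on the log2 scale relative to the list, at -0.22 to 0.21 in WT libraries and 0.24 to 0.99 in DTRScxLin libraries. Plvap was higher by 0.22, at -0.07 to 0.09 in WT libraries and 0.14 to 0.27 in DTRScxLin libraries. Without the reference its log2 fold change was 0.04 and its DTRScxLin libraries lay inside the WT range. The reference difference of -0.15 thus raises the Plvap value too. Angpt1 and Plvap both had no overlap and p = 0.1 in the exact permutation test, the smallest value the design allows, with 10 genes compared. On this scale 12.4% of all genes tested had no overlap and 10.5% were higher in every DTRScxLin library, so 2 of 10 is close to the background. The other 8 overlapped. They lay between -0.04 (Vegfa) and 0.16 (Kdr), with exact permutation p-values from 0.2 (Cdh5) to 1 (Emcn). Pecam1 tracked the list most closely, with -0.06 to 0.06 in all 6 libraries, whereas Vegfa ranged from -0.59 to 0.53 within WT tendons alone.

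**Figure D3:**
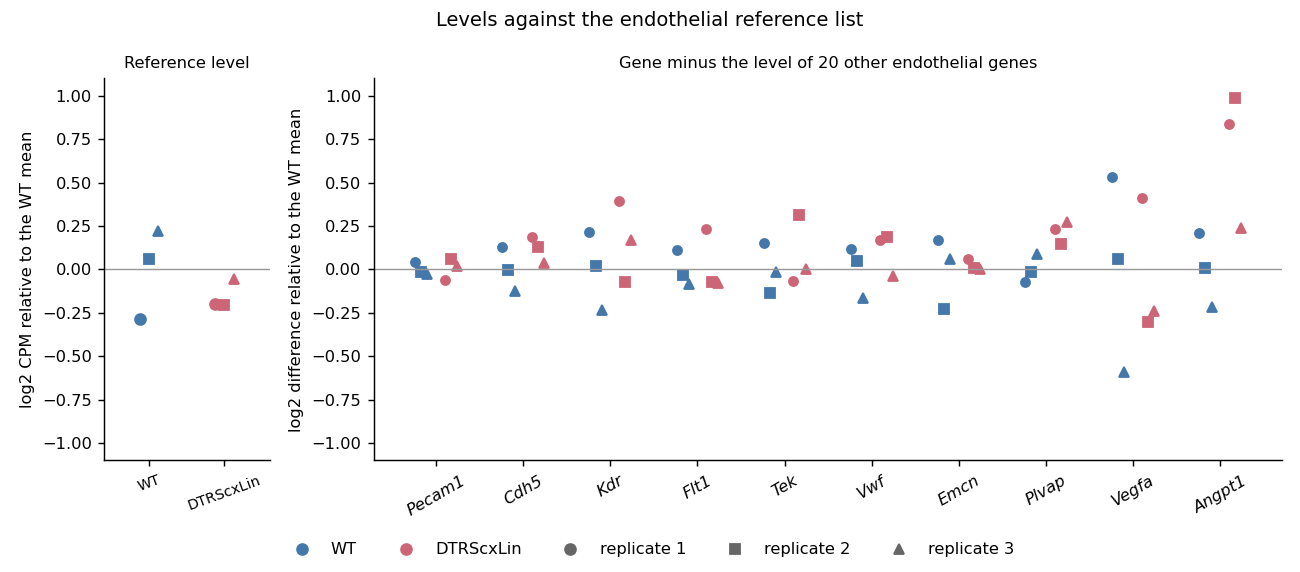
Left, mean log2 CPM of 20 other endothelial genes in each library, relative to the WT mean. Right, log2 CPM of each of the 10 genes minus that level, also relative to the WT mean. Points are libraries, coloured by genotype and shaped by replicate number. Pecam1 stays within -0.06 to 0.06, and the DTRScxLin libraries lie above all WT libraries for Plvap and Angpt1.

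Around Angpt1, a list of 10 angiopoietin, angiopoietin-like and Tie pathway genes had 5 fitted higher and 5 lower, with a median log2 fold change of 0.05. The angiopoietin-like genes in it (Angptl1, Angptl2 and Angptl4) are related by name and are not counted as Tie ligands. None passed an adjusted p of 0.05 in edgeR, and 3 did at an unadjusted p of 0.05, all higher. These 3, Angpt1, Angptl1 and Svep1, were also the 3 of the 10 without overlap, where 8.96% of all genes tested were higher in every DTRScxLin library. Angptl1, which encodes a secreted angiopoietin-like protein, had 7399.7 ± 1077 normalized counts in WT and 11593 ± 1848 in DTRScxLin tendons (SD, n = 3 each). Its log2 fold change was 0.65 ± 0.15 (SE) (adjusted p = 0.296 from edgeR, 0.00672 from DESeq2). Svep1, a large matrix protein that binds the Tie1 receptor, was at 0.66 ± 0.22 (SE) (unadjusted p = 0.0206 from edgeR, adjusted p = 0.0498 from DESeq2). The receptor-side genes Tek, Tie1 and Ptprb were at -0.07, -0.03 and -0.15, with standard errors of 0.13, 0.15 and 0.09.

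In the list of 10 VEGF ligands and receptors, 4 were fitted higher and 6 lower, and 0 passed an adjusted p of 0.05 in edgeR (1 at an unadjusted p of 0.05). All 5 ligands (Vegfa, Vegfb, Vegfc, Vegfd and Pgf) were fitted lower, between -0.08 and -0.39. Vegfb was the gene without overlap, at 936 ± 69.8 normalized counts in WT and 714 ± 19.3 in DTRScxLin tendons (SD, n = 3 each). Its log2 fold change of -0.39 had a standard error of 0.10 (adjusted p = 0.307 from edgeR, 0.0851 from DESeq2). The co-receptors Nrp1 and Nrp2 were at 0.17 and 0.23, with standard errors of 0.10 and 0.16.

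Genes of sprouting vessels gave no common direction. Among 12 tip cell and sprouting genes 5 were fitted higher and 7 lower (median -0.13), and 0 passed an adjusted p of 0.05 in edgeR (1 at an unadjusted p of 0.05). The tip cell markers Apln and Esm1 were at -0.20 and -0.19, with standard errors of 0.26 and 0.31. Lama4, a laminin of the vessel basement membrane that other cells also make, was higher in each DTRScxLin library, at 0.45 ± 0.12 (SE) (adjusted p = 0.317 from edgeR, 0.0214 from DESeq2). Kcne3 and Pdgfb, which encode a potassium channel subunit and the growth factor that recruits pericytes, were lower in each DTRScxLin library, at -0.67 ± 0.29 and -0.22 ± 0.12 (SE). Among 10 Notch genes 8 were fitted lower and 2 higher (median -0.14), with 0 called by edgeR and 3 at an unadjusted p of 0.05. Jag2, a Notch ligand, was lower in each DTRScxLin library, at -0.58 ± 0.13 (SE) (adjusted p = 0.281 from edgeR, 0.0212 from DESeq2), and the ligand gene Jag1 was higher in each, at 0.31 ± 0.12 (SE). The ligand gene Dll1 and the Notch target Hey2 were also lower in each, at -0.39 ± 0.16 and -0.48 ± 0.23 (SE). In a list of 15 arterial, capillary and venous genes, of which 14 were tested, 6 were fitted higher and 8 lower, with 0 called by edgeR and 1 at an unadjusted p of 0.05. That gene was Vcam1, an adhesion molecule of inflamed endothelium that fibroblasts carry as well, at 0.60 ± 0.16 (SE) (adjusted p = 0.346 from edgeR, 0.0309 from DESeq2).

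**Figure D4:**
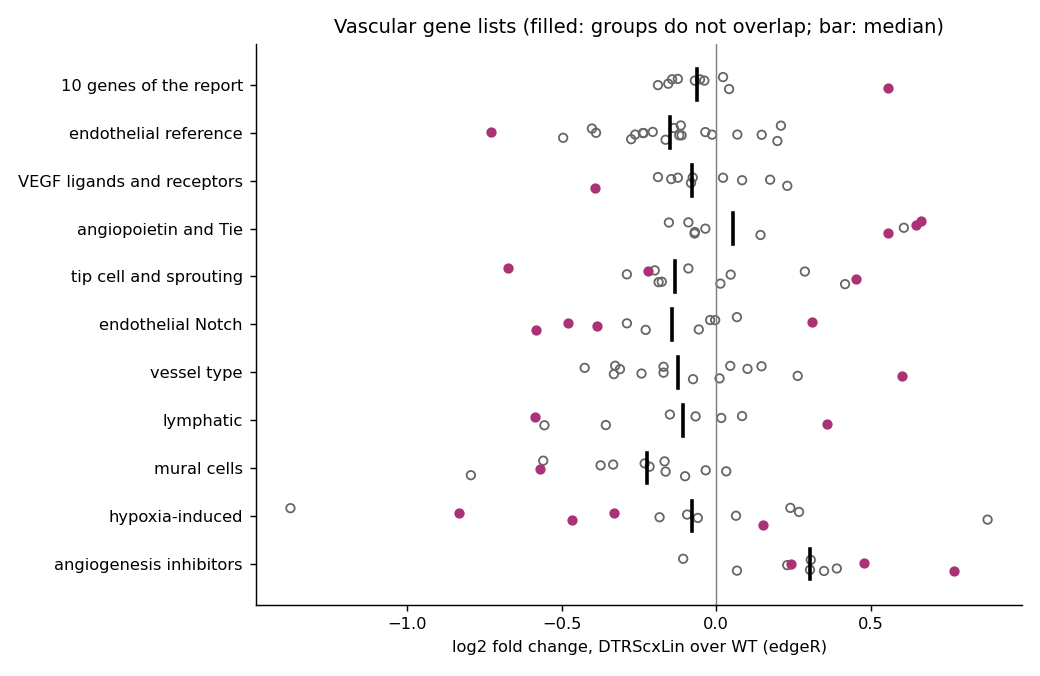
Log2 fold changes (edgeR, DTRScxLin over WT, horizontal axis) of every tested gene of the 10 genes described and of 10 vascular lists. Each point is a gene, filled where the groups do not overlap, and the bar is the median of the list. The 10 genes have a median of -0.06 with Angpt1 to the right. Of the 10 genes gathered as angiogenesis inhibitors 9 lie above 0, where 51.5% of all genes tested do.

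A list of 10 genes, gathered here as angiogenesis inhibitors, was fitted higher in 9 of 10, where 51.5% of all genes tested were. Its median log2 fold change was 0.31. In edgeR 0 passed an adjusted p of 0.05 and 2 did at an unadjusted p of 0.05. Thbs1 encodes thrombospondin-1, a matrix protein that limits vessel growth and has other roles in wounds. It had 22677 ± 51.6 normalized counts in WT and 38633 ± 7097 in DTRScxLin tendons (SD, n = 3 each), a log2 fold change of 0.77 ± 0.15 (SE) (adjusted p = 0.274 from edgeR, 0.000122 from DESeq2). Adamts1, a matrix protease that binds VEGF, was at 0.48 ± 0.09 (SE) (adjusted p = 0.268 from edgeR, 0.00799 from DESeq2). Chrdl1 is in the list too, although it is described as an antagonist of bone morphogenetic proteins. It was higher in each DTRScxLin library as well, at 0.24 ± 0.12 (SE). Tnmd, the tendon membrane protein, is also in this list, and its groups overlapped (0.30, standard error 0.21). Thbs1, Adamts1 and Tnmd are genes of tendon and scar cells as well, so this list is not one of endothelial transcripts.

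Vegfa is induced by low oxygen, and a list of 13 hypoxia-induced genes, of which 12 were tested, was fitted lower in 7 and higher in 5, with a median log2 fold change of -0.08. None was called by edgeR, and 3 had an unadjusted p of 0.05 or less, all lower. They were Bnip3, Ndrg1 and Hk2, and Hk2, a hexokinase of glycolysis that muscle also uses, had a log2 fold change of -0.83 ± 0.24 (SE) (adjusted p = 0.368 from edgeR, 0.0133 from DESeq2). Bnip3 was at -0.47 ± 0.14 and Ndrg1 at -0.33 ± 0.11 (SE), and the oxidoreductase gene Ero1a was higher in each DTRScxLin library, at 0.15 ± 0.08 (SE). The mural cells that wrap vessels, pericytes and smooth muscle, were represented by 12 genes. Of these, 11 were fitted lower (median -0.22) and 0 were called by edgeR, with 1 at an unadjusted p of 0.05. That was Abcc9, a subunit of a potassium channel, at -0.57 ± 0.15 (SE) (adjusted p = 0.340 from edgeR, 0.0356 from DESeq2), whereas Pdgfrb was at 0.03 ± 0.15 (SE). The 12 mural genes held 0.276% of the counts in WT replicate 3 and at most 0.210% in each of the other 5 libraries.

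Transcripts of neighbouring tissues varied between the libraries. The 20 genes listed for skeletal muscle held 2.19% to 3.00% of the counts in WT libraries, 2.67% in DTRScxLin replicate 2, and 0.393% and 0.738% in DTRScxLin replicates 1 and 3. Angpt1 was highest in DTRScxLin replicate 2, whose muscle share was inside the WT range. Without that library its log2 fold change was 0.43, and with the muscle level as a covariate it was 0.70 (adjusted p = 0.643, edgeR). That covariate was low in DTRScxLin replicates 1 and 3, so its effect and that of genotype cannot be fully told apart. It also took Kdr to -0.26, Flt1 to -0.30 and Vegfa to -0.51, with a median of -0.13 over the 10 genes. Under it edgeR called 0 of the 10, and 3 (Angpt1, Kdr and Flt1) had an unadjusted p under 0.05. In the same fit 1127 of all 17496 genes tested did. Neb, Atp2a1 and Ryr1 were the muscle genes without overlap, at -1.48 ± 0.80, -1.69 ± 0.82 and -1.94 ± 0.76 (SE). A list of 12 keratinocyte genes held 0.311% and 0.193% in WT replicates 1 and 2 and at most 0.0292% in the other libraries. With the keratinocyte level as a covariate the Angpt1 value was 0.42 (adjusted p = 0.701, edgeR). Counts of Xist and of the Y-linked Ddx3y marked WT replicate 2 and DTRScxLin replicates 2 and 3 as female and the other 3 as male. Within females Angpt1 was at 1644 in WT against 2701 and 1783, and within males at 1490.1 and 1578 in WT against 2439. With sex as a term the log2 fold change was 0.56 (adjusted p = 0.318, edgeR).

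Red cell transcripts were read beside the endothelial genes. All 5 tested genes of an erythroid list were fitted lower in DTRScxLin tendons, with a median log2 fold change of -1.11. None was called by edgeR and all 5 had an unadjusted p under 0.05, where 5.45% of all genes tested did and were lower. The list held 0.00963% to 0.0217% of the counts in WT libraries and 0.00549% to 0.00891% in DTRScxLin libraries. Alas2, the enzyme that starts haem synthesis in red cells, had a log2 fold change of -1.46 ± 0.34 (SE) (adjusted p = 0.293 from edgeR, 0.00137 from DESeq2). The globin genes Hbb-bs and Hba-a1, at -1.13 ± 0.39 and -1.11 ± 0.39 (SE), have near-identical copies between which the counting could split reads. Since Vwf is also made by megakaryocytes, platelet genes were read beside it. Of 8 such genes 4 had enough counts to test, 3 fitted lower and 1 higher with a median of -0.27, and 0 had an unadjusted p under 0.05 or were called by edgeR. Itga2b was at 0.21 ± 0.14, Pf4 at -0.14 ± 0.17, Ppbp at -0.39 ± 0.32 and Gp1ba at -1.59 ± 1.11 (SE). Scx itself, read as a gene of the depleted lineage, had 2656 ± 433 normalized counts in WT and 3472 ± 62.4 in DTRScxLin tendons (SD, n = 3 each). It was higher in each DTRScxLin library (adjusted p = 0.371, edgeR). Its level at D28 does not measure depletion, since the study found cells that newly express Scx after injury. The study could not quantify how far the cells were depleted. Of the 10 tendon cell genes 7 were fitted higher and 3 lower, with a median of 0.31 and 0 called by edgeR (4 at an unadjusted p of 0.05). Thbs4, Kera and Egr1 were also higher in each DTRScxLin library, at 0.65 ± 0.16, 0.43 ± 0.17 and 0.62 ± 0.30 (SE). For these 3, adjusted p-values from DESeq2 were 5.94e-05, 0.153 and 0.192. Tppp3, Comp and Fmod were fitted lower, at -0.43 ± 0.18, -0.18 ± 0.17 and -0.17 ± 0.17 (SE). All 8 adipocyte genes were fitted lower (median -2.32), with 0 called by edgeR and 6 at an unadjusted p of 0.05. Of all genes tested, 5.45% were lower at that unadjusted p. Adipoq, Plin1 and Cfd were at -2.38 ± 0.57, -2.25 ± 0.60 and -2.53 ± 0.59 (SE). Their adjusted p-values from DESeq2 were 0.000289, 0.00365 and 0.00615 in that order. The 12 macrophage genes had a median of 0.04, with 6 in each direction and 0 called by edgeR (1 at an unadjusted p of 0.05). That was the scavenger receptor gene Cd163, at -1.52 ± 0.31 (SE) (adjusted p = 0.293 from edgeR, 2.70e-06 from DESeq2). Of 8 lymphatic endothelial genes 3 were fitted higher and 5 lower (median -0.11), with 0 called by edgeR. The 1 gene at an unadjusted p of 0.05 was Lyve1, lower at -0.56 ± 0.21 (SE), and its groups overlapped. Other genes of this list were nearer to 0, with Prox1 at 0.02 ± 0.34, Flt4 at 0.08 ± 0.31 and Mmrn1 at -0.07 ± 0.44 (SE). Ccl21a was at -0.15 ± 0.54 and Reln at -0.36 ± 0.29 (SE). Stab2, with a mean of 26.8 normalized counts, was lower in each DTRScxLin library, at -0.59 ± 0.29 (SE). Pdpn, which fibroblasts also express, was higher in each DTRScxLin library, at 0.36 ± 0.16 (SE). The part of these other tissues in the vascular values was not tested beyond the covariate fits given.

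**Figure D5:**
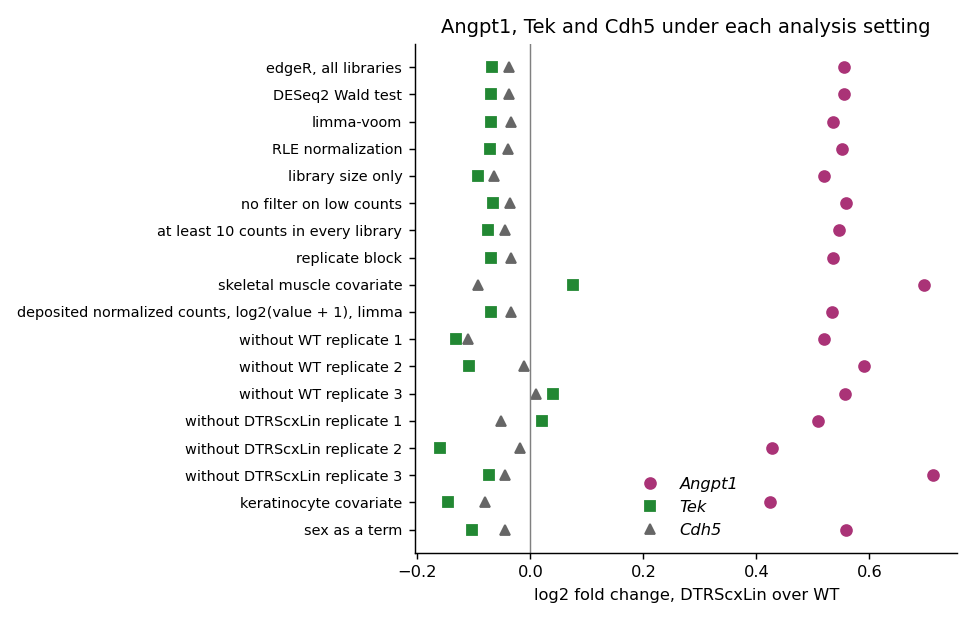
Log2 fold changes of Angpt1, its receptor gene Tek and Cdh5 (horizontal axis) under each analysis setting (vertical axis). Angpt1 stays between 0.42 and 0.71 in all settings drawn, while Tek and Cdh5 stay between -0.16 and 0.08.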

How the data were processed

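Bulk RNA-seq libraries of FDL tendons (3 DTRScxLin, 3 WT, 1 tendon per biological sample) were analysed. The labels name both a strand-marking TruSeq kit and a SMARTER kit. The authors cleaned the reads and used featureCounts for quantification, and the deposited counts per gene are not normalized. They also deposited a signal table of the same counts, each library divided by 1 DESeq2 size factor (version 1.22.1 in the submitters' processing notes). Aligner, build, annotation and strand setting are not given in the sources used here. Libraries held 42744138 to 48854310 counts.

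Testing of the counts used edgeR 4.0.16 under R 4.3.3 (filterByExpr, TMM, robust quasi-likelihood test on genotype, Benjamini-Hochberg over all genes tested, threshold 0.05). Standard errors are the absolute log2 fold change over the square root of F. DESeq2 1.42.0 and limma 3.58.1 were alternatives. Scripts were tested on simulated data. Counts of replicates differed beyond sampling noise, so each library was counted once. Exon lengths came from GENCODE vM21.

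The 10 genes and all lists were chosen with earlier results of these data known. Of other genes, those called were named, or else up to 3 per list and direction with the largest change, at least 50 normalized counts and no overlap, with Scx and Tnmd. Genes named beyond that rule were chosen after their values were seen. Covariates for keratinocyte level and sex were also added then.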

Additional observations from a re-analysis of the deposited data

How the results depend on the processing

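Over all genes tested, edgeR called 0, DESeq2 466, and edgeR without a filter on low counts 83. Leaving out 1 library gave 0 to 544 called genes, with 544 without DTRScxLin replicate 2. Of the 10 genes DESeq2 called 1 (Angpt1) and every other setting 0, leave-one-out included (0 to 0). Their median log2 fold change ran from -0.12 to 0.01 with 1 library left out, and the number without overlap from 1 to 4. The endothelial reference difference ran from -0.29 to -0.04, and the median of the 10 genes relative to it from 0.05 to 0.17. Angpt1 kept its direction in every setting, between 0.42 and 0.71, with adjusted p from 0.0449 to 0.838.

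Directions of genes near 0 turned. Kdr was at -0.00486 with library size only and at -0.26 with the muscle covariate, under which Tek was at 0.0758, Plvap at -0.0981, Flt1 at -0.30, Vegfa at -0.51 and the median of the 10 genes at -0.13. Plvap was at -0.0358 with the keratinocyte covariate. With 1 library left out, Kdr ran from -0.0738 to 0.15, Plvap from -0.12 to 0.21, Vwf from -0.13 to 0.00213, Cdh5 from -0.11 to 0.0100, Tek from -0.16 to 0.0397, Emcn from -0.23 to 0.0102 and Vegfa from -0.43 to -0.0404. The cause was not tested. The keratinocyte covariate and the sex term were chosen after seeing the data.

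With the replicate number as a block, edgeR called 1 gene over all and 0 of the 10, with Angpt1 at 0.54 (adjusted p = 0.261). Same-numbered libraries did not deviate together (correlations -0.19, -0.15 and -0.68), and 0 of 6 libraries correlated best with its own number. No pairing was thus seen, although 3 libraries per group are too few to exclude one.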
